A study of Mus musculus with 8 samples.

Results

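The EGR, NR4A and KLF response factors described here are 10 genes of 3 families of DNA-binding transcription factors, namely Egr1, Egr2 and Egr3, Nr4a1, Nr4a2 and Nr4a3, and Klf2, Klf4, Klf6 and Klf10. They were taken by symbol from the deposited count table, where each symbol matched 1 row, so that they make up 10 of 56748 genes. RNA was sequenced from primary fibroblasts of the hearts of 1-day-old wild-type C57BL/6J mice. For 4 libraries the cells had been exposed to recombinant TGF-β1 (transforming growth factor beta 1) at 10 ng/mL for 48 h, and for 4 libraries they were untreated. This cytokine turns fibroblasts into contractile, matrix-producing cells. All cultures were grown in medium with fetal serum, and replicates were cells of different litters according to the series design. The cells were those of whole digested hearts that adhered to the dish, and the labels describe no sort.

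EGR proteins bind GC-rich sites through C2H2 zinc fingers, and Egr1 is the classic immediate early gene, switched on within minutes of serum, growth factors or stretch through serum response factor (SRF) and its ternary complex partners. The NR4A proteins are orphan nuclear receptors whose activity is set mainly by how much of them is made, and Nr4a1 is known from mouse models as a brake on TGF-β signalling in fibrosis. KLF factors share C-terminal zinc fingers that bind CACCC and GC boxes. Klf2 and Klf4 are known for restraining inflammation in the vessel wall, Klf6 was described as an injury-induced activator of TGF-β pathway genes, and Klf10 was first isolated as the TGF-β inducible early gene. As bulk RNA was measured, fewer cells of a type and less RNA per cell cannot be told apart.

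Library totals ran from 14597778 to 17176898 counts in the TGF-β1 libraries and from 14340740 to 16373798 in the untreated ones. The cells had responded to the cytokine, and all 3 genes checked for this were called higher by edgeR. Ccn2, a matricellular target gene of TGF-β, averaged 2517 ± 85.1 CPM in TGF-β1 libraries and 1258 ± 69.4 CPM in untreated ones (CPM, counts scaled to the TMM-adjusted library total, SD, n = 4 each), a log2 fold change of 1.00 ± 0.04 (SE). The pathway repressor gene Skil rose by 0.76 ± 0.05 and the inhibitory gene Smad7 by 0.16 ± 0.04 on the log2 scale. The 8 fibroblast markers summed to 22501 to 23965 CPM in TGF-β1 libraries and 17346 to 18872 CPM in untreated ones. Of these 8 markers 3 rose and 4 fell. Col1a1, Col1a2 and Postn rose, with log2 fold changes of 0.62, 0.41 and 0.38. Pdgfra, Lum, Tcf21 and Dcn fell, with −1.18, −1.11, −0.69 and −0.39, and Vim was not called. Col1a1 alone averaged 10701 CPM with TGF-β1 and 6974 CPM without, so the sum is no measure of fibroblast number. Markers of other cell types summed to lower levels. The largest of these sums, of the epicardial and mesothelial and of the cardiomyocyte markers, are given beside Egr1. Most of the macrophage sum came from Lyz2, with means of 149 CPM with TGF-β1 and 169 CPM without. The 8 endothelial markers summed to 76.5 to 83.7 CPM in TGF-β1 libraries and 81.4 to 82.5 CPM in untreated ones, and the 8 macrophage markers to 164.0 to 198.6 CPM with TGF-β1 and 180.3 to 220.3 CPM without. The 7 mural cell markers, 2 of which rose and 1 of which fell, summed to 84.3 to 95.9 CPM in TGF-β1 libraries and 63.2 to 71.7 CPM in untreated ones. No marker was at 0 in all libraries. Untreated replicate 1 had 0.0322% of its counts on ribosomal RNA genes, while the share was 1.05% to 2.47% in the TGF-β1 libraries and 2.05% to 2.40% in the other untreated ones.

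Sequence just before the canonical transcription starts of Klf2 and Egr2 is shown because it holds motifs named for factors of this group or for their known regulators. The Klf2 window, chr8:73072526-73072725 on the plus strand of GRCm39, covers the 200 bases before the start of the GENCODE M39 canonical transcript and touches no annotated exon. That start lies 151 bases before the gene start in the deposited table. From the same window of Egr2, the 25 bases from its CArG box on are given, chr10:67373627-67373651 on the plus strand. They touch no annotated exon but lie inside the gene as annotated, 2322 bases after the gene start in the deposited table, because the canonical transcript of Egr2 starts further in. Capitals mark the CArG box, which is the binding motif of SRF, the EGR motif GCGNGGGCG, and the core TGACG of the cAMP response element, which reads CGTCA where it lies on the other strand.
Klf2: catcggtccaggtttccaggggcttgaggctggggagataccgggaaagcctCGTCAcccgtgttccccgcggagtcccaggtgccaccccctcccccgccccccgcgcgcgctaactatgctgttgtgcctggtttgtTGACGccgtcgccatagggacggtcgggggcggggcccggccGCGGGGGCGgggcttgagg
Egr2: CCATATATGGgcagcgaCGTCAcgg

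Both strands of the 200-base window were searched for 10 motifs in all 10 genes and in 21757 protein-coding genes. As for Egr2, the canonical start lies inside the annotated gene for Nr4a1 (101164660, gene start 101151980) and Nr4a2 (57006246, gene start 57014331). The windows of Egr2, Nr4a1, Nr4a2, Klf4 and Klf10 touch annotated exons. The CArG box, read strictly as CC, 6 bases of A or T, and GG, was found in 2 of the 10 windows. They were those of Egr2 and Egr3, and it was in 1.08% of all promoters. Variant CArG boxes and sites outside the 200-base window were not searched for. The TGACG core was found in 6 of the 10 and in 16% of all promoters, in Egr1, Egr2, Egr3, Nr4a1, Nr4a3 and Klf2. The GC box GGGCGG was found in 6 of the 10 and in 34.8% of all promoters, in Egr1, Nr4a1 and the KLF genes Klf2, Klf4, Klf6 and Klf10. The EGR motif was found in Klf2 alone, where it overlaps a GC box, and in 4.1% of all promoters. A MEF2 site was found in Nr4a1 alone and in 2.06% of all promoters, and the TATAAA box found in the same gene (9.57% of all promoters) overlaps it. The full cAMP response element TGACGTCA (1.59% of all promoters), the NR4A monomer site AAAGGTCA (0.988%), the SMAD element GTCTAGAC (0.175%) and the AP-1 site TGANTCA (4.94%) were in none of the 10 windows. These matches describe letters and not occupied sites.

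Egr1 and Klf2 were called lower with TGF-β1 by edgeR, and the other 8 genes were not called. A gene was called where the quasi-likelihood test of edgeR gave an adjusted p under 0.05, with Benjamini-Hochberg adjustment over 13960 genes. All 10 passed the count filter. The Egr1 level with TGF-β1 was 0.603 times that without, and the Klf2 level 0.902 times. DESeq2 and limma on FPKM values called Klf2 but not Egr1, and both calls depended on single libraries, as given below. No gene of the group was called higher, none was higher at an unadjusted p under 0.05, and DESeq2 also called none higher. At an unadjusted p under 0.05, 4 were lower, which adds Nr4a1 and Klf6. The share of all genes lower at that unadjusted limit was not taken, so this count has no background here. Over all genes tested 36% were called at the adjusted p, 17.6% higher and 18.5% lower, so 2 of 10 lower is close to that background. The median log2 fold change of the 10 was −0.12 and that of all tested genes 0.0068. With library totals in place of the TMM factors used here, 1301 of 13960 genes were called higher and 3673 lower. With the factors these were 2451 and 2579. Of the 10, 5 were called lower with library totals. The median of all genes was then −0.074 and that of the 10 was −0.21.

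**Figure D1:**
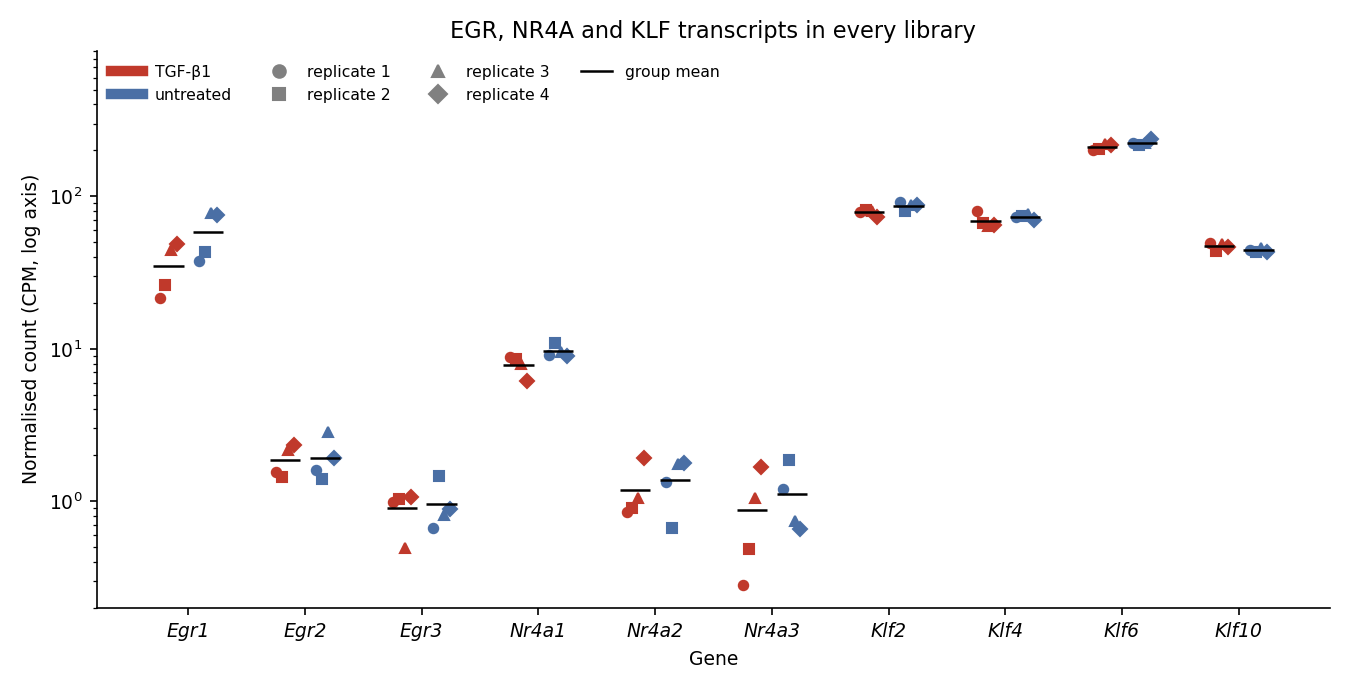
Normalised count in CPM (log axis) of the 10 genes in each library, with TGF-β1 libraries in red left of untreated ones in blue, marker shapes for replicates and bars for group means. Egr1 spread from 21.4 to 48.3 CPM in TGF-β1 libraries and from 37.5 to 77.8 CPM in untreated ones, while Klf6 stayed within 199.7 to 237.4 CPM over all 8 libraries.

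Ranked per gene length, Klf6, Klf2 and Klf4 were the most abundant and 4 EGR and NR4A genes the scarcest. Klf6 had 47.1 ± 2.19 FPKM in TGF-β1 libraries and 50.4 ± 2.09 FPKM in untreated ones (fragments scaled to gene length and library size, the authors' deposited values, SD, n = 4 each). Klf2 followed with 41.8 ± 2.07 FPKM in TGF-β1 libraries and 46.3 ± 2.45 FPKM in untreated ones. Its range overlapped that of Klf6 in untreated libraries but not in TGF-β1 ones. Klf4 had 22.3 ± 2.37 FPKM in TGF-β1 libraries and 23.7 ± 0.794 FPKM in untreated ones, apart from its neighbours in both groups. Klf10 and Egr1 changed places. Klf10 was next in TGF-β1 libraries, with 11.1 ± 0.653 FPKM against 7.69 ± 2.88 FPKM for Egr1. Egr1 was next in untreated libraries, with 12.8 ± 4.66 FPKM against 10.4 ± 0.301 FPKM for Klf10, but their ranges overlapped in both groups. Nr4a1 came next with 2.20 ± 0.338 FPKM in TGF-β1 libraries and 2.70 ± 0.254 FPKM in untreated ones. Egr2, Nr4a2, Egr3 and Nr4a3 had means of 0.143 to 0.544 FPKM in TGF-β1 libraries and 0.183 to 0.559 FPKM in untreated ones, and each overlapped the next.

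Egr1, which encodes the early growth response protein that links serum and growth factor signals to transcription (ENSMUSG00000038418, chromosome 18, 34992876 to 34998037, plus strand, 2 exons), had the most reads of the EGR genes. It had 21.4, 26.3, 44.2 and 48.3 CPM in TGF-β1 replicates 1 to 4, against 37.5, 42.8, 77.8 and 75.6 CPM in untreated replicates 1 to 4. In both groups replicates 1 and 2 were low and replicates 3 and 4 high. The groups overlapped, since TGF-β1 replicates 3 and 4 lay above untreated replicates 1 and 2. Each TGF-β1 replicate lay below the untreated replicate of the same number, although the numbers were not taken as pairs. The group means were 35.1 ± 13.2 CPM with TGF-β1 and 58.4 ± 21.2 CPM without (SD, n = 4 each), a log2 fold change of −0.73 ± 0.21 (SE, 95% interval −1.17 to −0.29, edgeR adjusted p = 0.00920). DESeq2 did not call it (−0.74, adjusted p = 0.121), and neither did limma on FPKM values, with a pseudocount of 1 (−0.67, adjusted p = 0.0927) or 0.1 (−0.73, adjusted p = 0.0908). When untreated replicate 3 was left out the change was −0.57 and was not called (edgeR adjusted p = 0.0513). Over all 16 alternative fits the edgeR, DESeq2 or limma adjusted p ran from 2.93e-32 to 0.121, the lowest of them without a count filter. Some markers of other cell types moved in the same direction as Egr1. The 8 cardiomyocyte markers summed to 384.0 to 454.3 CPM in TGF-β1 libraries and 704.9 to 768.2 CPM in untreated ones, with 7 of 8 lower. The 6 epicardial and mesothelial markers summed to 812.3 to 843.1 CPM in TGF-β1 libraries and 1046 to 1106 CPM in untreated ones, with 3 of 6 lower. Their part in the result was not tested.

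Egr2, which encodes a related factor known from Schwann cell myelination (ENSMUSG00000037868, chromosome 10, 67371305 to 67378018, plus strand), whose CArG box stretch is printed above, was counted with 21 to 39 reads per TGF-β1 library and 21 to 42 per untreated library. It had 1.55, 1.45, 2.18 and 2.33 CPM in TGF-β1 replicates 1 to 4, against 1.59, 1.39, 2.83 and 1.91 CPM in untreated replicates 1 to 4. The groups overlapped almost entirely, and as for Egr1 replicates 3 and 4 were the higher ones in each group. Its log2 fold change was −0.032 with a 95% interval of −0.59 to 0.53 (edgeR adjusted p = 0.942). Egr3, known from muscle spindle development (ENSMUSG00000033730, chromosome 14, 70314652 to 70320063, plus strand), had 7 to 18 reads in TGF-β1 libraries and 10 to 22 in untreated ones. Its log2 fold change was −0.082 with an interval of −0.81 to 0.64 (edgeR adjusted p = 0.885). At these depths a change of the size seen for Egr1 was inside the interval of Egr3, and that of Egr2 ended short of it at −0.59.

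Nr4a1, the orphan receptor also called Nur77 (ENSMUSG00000023034, chromosome 15, 101152150 to 101172676, plus strand), was the best counted receptor of its family. It had 8.82, 8.50, 7.95 and 6.14 CPM in TGF-β1 replicates 1 to 4, against 9.10, 10.9, 9.57 and 8.95 CPM in untreated replicates 1 to 4. Every TGF-β1 library lay below every untreated one, which was so, in one direction or the other, for 33.9% of all tested genes. The log2 fold change was −0.30 ± 0.13 (SE, 95% interval −0.56 to −0.038), and the call was missed after adjustment (edgeR adjusted p = 0.0685). It was called lower with library totals (−0.38, edgeR adjusted p = 0.0200) and without TGF-β1 replicate 1 (−0.36, edgeR adjusted p = 0.0477), and the adjusted p over 16 alternative fits ran from 0.0200 to 0.244. In GENCODE M39, 6.02% of its exonic bases lie under exons of Gm63180 on the other strand, and no source used here says whether the authors counted by strand.

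Nr4a2, a receptor known for its role in dopamine neurons (ENSMUSG00000026826, chromosome 2, 56996842 to 57014015, minus strand), had 12, 13, 15 and 32 reads in TGF-β1 replicates 1 to 4 and 20, 10, 26 and 30 reads in untreated replicates 1 to 4. The groups overlapped, and its log2 fold change was −0.21 with a 95% interval of −0.92 to 0.49 (edgeR adjusted p = 0.671). It was −0.57 without TGF-β1 replicate 4 and −0.060 without untreated replicate 4, and was not called in either. Nr4a3 (ENSMUSG00000028341, chromosome 4, 48045153 to 48086447, plus strand) had 4, 7, 15 and 28 reads in TGF-β1 replicates 1 to 4 and 18, 28, 11 and 11 reads in untreated replicates 1 to 4. It was the most variable of the 10 within groups, and its high replicates were 3 and 4 with TGF-β1 but 1 and 2 without. Its log2 fold change was −0.30 with an interval of −1.21 to 0.60 (edgeR adjusted p = 0.635), which turned to 0.055 without untreated replicate 2.

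Klf2, a factor known from endothelial cells under flow and from quiescent T cells (ENSMUSG00000055148, chromosome 8, 73072877 to 73075500, plus strand), was called at a small size. It had 79.4, 81.9, 79.4 and 73.0 CPM in TGF-β1 replicates 1 to 4, against 91.7, 80.7, 87.2 and 88.0 CPM in untreated replicates 1 to 4. Only untreated replicate 2 lay within the TGF-β1 range. The means were 78.4 ± 3.79 CPM with TGF-β1 and 86.9 ± 4.6 CPM without (SD, n = 4 each). The log2 fold change was −0.15 ± 0.049 (SE, 95% interval −0.25 to −0.048, edgeR adjusted p = 0.0200). The call was lost without TGF-β1 replicate 4 (−0.11, edgeR adjusted p = 0.0800), untreated replicate 1 (−0.13, edgeR adjusted p = 0.0620) or untreated replicate 4 (−0.14, edgeR adjusted p = 0.0529). The adjusted p over 16 alternative fits ran from 0.00112 to 0.0800. Of the endothelial markers in these libraries, Pecam1 and Cdh5 rose and Tek and Egfl7 fell, and the other 4 were not called. Their summed level overlapped between the groups.

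Klf4, a factor that restrains smooth muscle genes and is one of the reprogramming factors (ENSMUSG00000003032, chromosome 4, 55527143 to 55532466, minus strand), had 79.7, 67.0, 64.2 and 65 CPM in TGF-β1 replicates 1 to 4, against 73.4, 74.0, 76.5 and 70.1 CPM in untreated replicates 1 to 4. TGF-β1 replicate 1 was above all untreated libraries and the other 3 treated libraries were below them. The log2 fold change was −0.092 ± 0.059 (SE, 95% interval −0.21 to 0.031, edgeR adjusted p = 0.243). Without TGF-β1 replicate 1 it was −0.17 and was called (edgeR adjusted p = 0.0133), and it was also called with library totals (−0.17, edgeR adjusted p = 0.0214). The adjusted p over 16 alternative fits ran from 0.0133 to 0.528.

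Klf6, the most abundant of the group (ENSMUSG00000000078, chromosome 13, 5911481 to 5920393, plus strand), had 199.7, 203.8, 221.2 and 215.8 CPM in TGF-β1 replicates 1 to 4, against 223.8, 216.0, 223.1 and 237.4 CPM in untreated replicates 1 to 4. Only TGF-β1 replicate 3 reached into the untreated range. The log2 fold change was −0.099 ± 0.042 (SE, 95% interval −0.19 to −0.012) and was not called (edgeR adjusted p = 0.0701). It was called with library totals (−0.18, edgeR adjusted p = 0.00267), with a count of at least 10 required in every library (−0.11, edgeR adjusted p = 0.0471) and without TGF-β1 replicate 3 (−0.12, edgeR adjusted p = 0.0427). The adjusted p over 16 alternative fits ran from 0.00267 to 0.242.

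Klf10, the TGF-β inducible early gene (ENSMUSG00000037465, chromosome 15, 38291707 to 38300950, minus strand), was the only one of the 10 with a positive log2 fold change. It had 49.6, 43.5, 48.8 and 46.2 CPM in TGF-β1 replicates 1 to 4, against 44.2, 43.2, 46.1 and 43.2 CPM in untreated replicates 1 to 4. The groups overlapped, with 3 of the 4 TGF-β1 libraries above every untreated one. The log2 fold change was 0.091 ± 0.056 (SE, 95% interval −0.025 to 0.21, edgeR adjusted p = 0.220), and with library totals it was 0.010. In GENCODE M39, 1.48% of its exonic bases lie under exons of Gm35248 on the other strand.

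**Figure D2:**
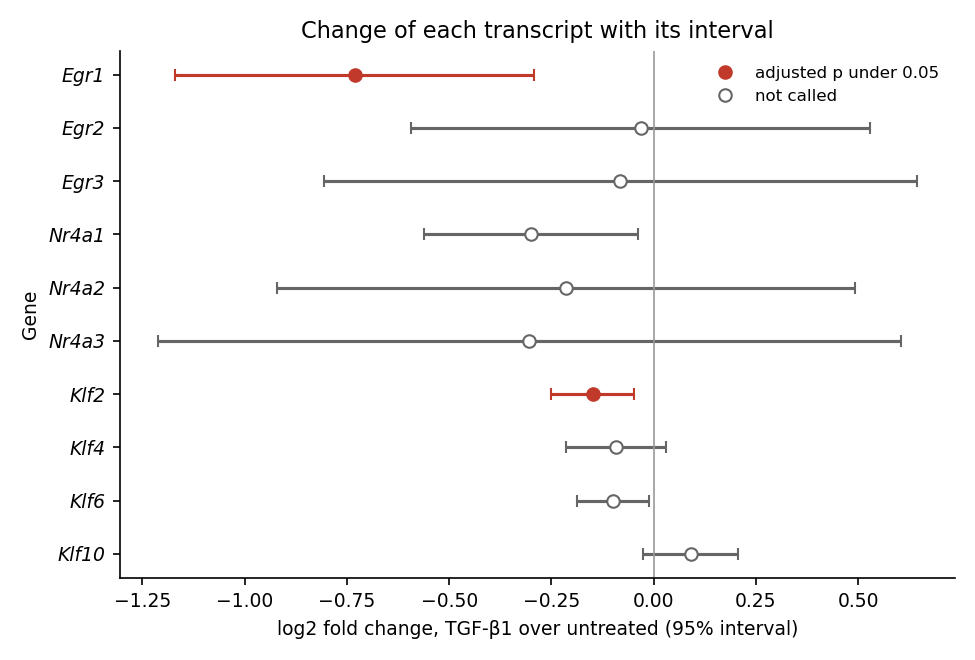
Log2 fold change of each gene, TGF-β1 over untreated, with its 95% interval from the edgeR model. Filled red points mark Egr1 (−0.73) and Klf2 (−0.15), the called genes, and the intervals of the KLF genes are far narrower than those of Egr2, Egr3, Nr4a2 and Nr4a3.

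Whether genes of 1 family changed by different amounts was tested with the log2 ratio of each pair of family members in each library, over 12 pairs. The Egr1 to Egr2 ratio was 3.42 to 4.11 on the log2 scale in TGF-β1 libraries and 4.18 to 4.98 in untreated ones, without overlap, and the difference of the means was −0.72 (exact two-sided permutation p = 0.0286, adjusted p = 0.114 over the 12 pairs). The Klf4 to Klf10 and Klf6 to Klf10 ratios were also apart in the 2 groups, with differences of −0.18 and −0.19 and the same exact permutation p and adjusted p. A p of 0.0286 is the smallest that 4 against 4 libraries can give. The ratio of Klf2 to Klf10 differed by −0.24 (exact permutation p = 0.0571, adjusted p = 0.171), with overlapping ranges. With this smallest p, 7 of the 12 pairs would have to reach it for any to pass the adjustment, and 3 did, so that the adjusted values say little about these 3 ratios. The other 8 had exact permutation p of 0.229 or more. Among the KLF pairs without Klf10, the differences were −0.051 for Klf2 to Klf4, −0.047 for Klf2 to Klf6 and 0.0039 for Klf4 to Klf6.

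Egr1 varied more between replicates than nearly all well-counted genes. The SD of its deviations from the group means was 0.51 on the log2 scale, rank 27 from the largest of 10562 genes with at least 5 CPM. Nr4a1, with 0.17, ranked 1031, Klf4, with 0.10, ranked 3666, and Klf2, Klf10 and Klf6 ranked 6668, 7308 and 7815. The genes that followed these deviations of Egr1 most closely over the 8 libraries were Gm10076 (Pearson r = 0.99), the caveolin gene Cav1 (r = 0.99) and Ccn1 (r = 0.98), which encodes a matricellular protein and is itself an immediate early gene. Such correlations describe 8 libraries, and the genes compared share the depth and preparation of each library. Cav1 fell like Egr1 (−0.78 ± 0.04, edgeR adjusted p = 1.36e-12), and Gm10076 was not called (−0.34 ± 0.32, edgeR adjusted p = 0.436). Ccn1 was called in the other direction. It had 816.5, 841.1, 950.2 and 934.5 CPM in TGF-β1 replicates 1 to 4, against 514.8, 536.6, 630.1 and 625.0 CPM in untreated replicates 1 to 4, so that it rose by 0.62 ± 0.06 (SE, edgeR adjusted p = 1.55e-08) although its high and low replicates were those of Egr1.

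Some other immediate early genes varied in the same libraries. Of 23 such genes with at least 5 CPM, 7 had a correlation above 0.8 with the deviations of Egr1, against 2.18% of 10561 other genes, a limit chosen after the values were seen. They were Ccn1, Ier2, Ier3, Junb, Btg2, Zfp36 and Dusp6. Ier2, an immediate early nuclear protein gene, had 36.5, 37.5, 47.3 and 52.0 CPM in TGF-β1 replicates 1 to 4, against 39.3, 36.9, 54.0 and 53.9 CPM in untreated replicates 1 to 4. Its replicates 3 and 4 were the high ones in both groups while the group means were close. Of the 5 other genes of the group at this level, none passed 0.8, with Klf6 at 0.79, Klf10 at 0.12, Klf2 at −0.29, Klf4 at −0.58 and Nr4a1 at −0.63. Below this level, at few reads, Egr2 passed it with 0.86, while Nr4a2 had 0.75, Nr4a3 0.24 and Egr3 −0.28 with Egr1. Nr4a2 was followed most closely by Dusp1, the gene of a MAP kinase phosphatase (r = 0.99 over the 8 libraries), at no more than 32 reads of Nr4a2 in any library.

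**Figure D3:**
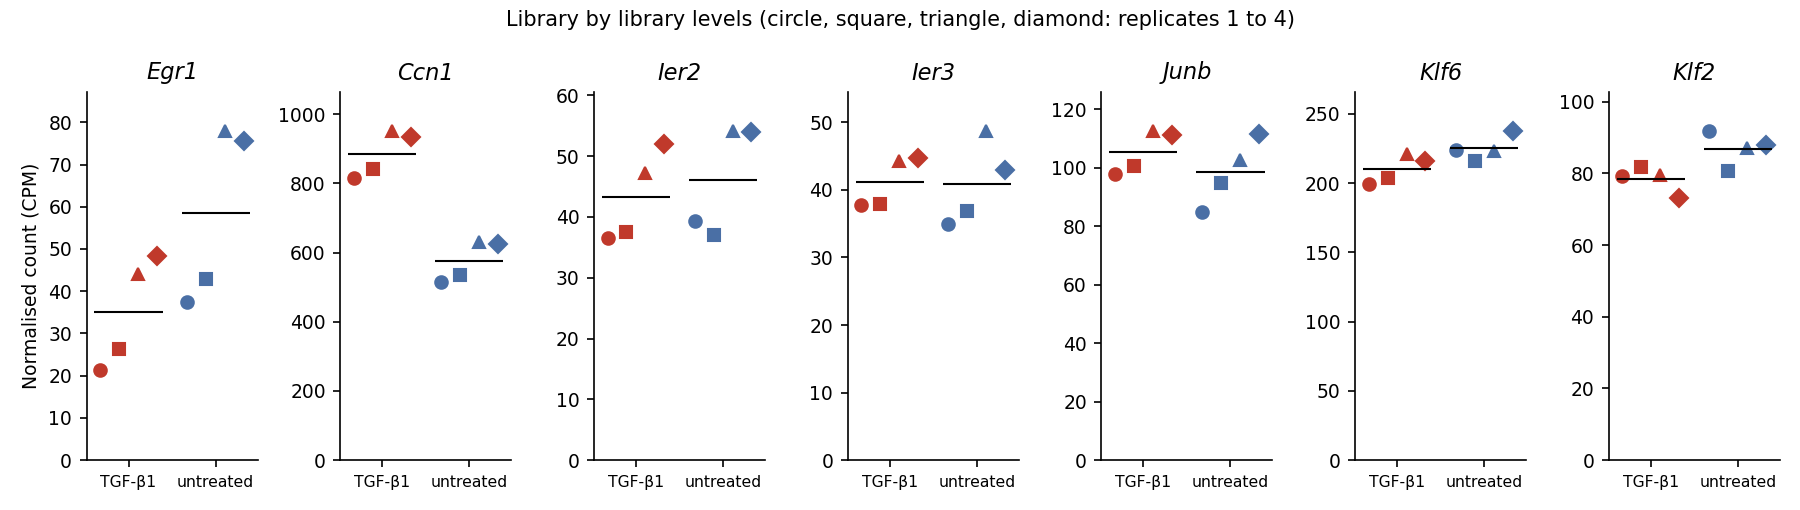
Normalised count (CPM, axes from 0) of Egr1, 4 immediate early genes, Klf6 and Klf2 in each library, TGF-β1 in red and untreated in blue, with bars for group means. Replicates 3 and 4 are above replicates 1 and 2 in both groups for Egr1, Ccn1, Ier2, Ier3 and Junb, and not for Klf2.

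The wider list of immediate early genes had no common direction. Of 28 genes, 6 rose and 5 fell, with a median log2 fold change of −0.044. With library totals 4 rose and 8 fell, and with DESeq2 6 rose and 4 fell. These counts stand beside 17.6% of all tested genes called higher and 18.5% lower with the TMM factors. Btg1, an antiproliferative gene, rose by 0.82 ± 0.05, and Gadd45b, a stress-response and TGF-β target gene, by 0.60 ± 0.06. Dusp1 fell by 0.56 ± 0.06 on the log2 scale. Dusp6, the phosphatase gene induced by ERK signalling, was among the 5 that fell (−0.58 ± 0.07). Fos, the AP-1 subunit that is induced together with Egr1 by serum, had 2.33, 1.73, 4.01 and 5.01 CPM in TGF-β1 replicates 1 to 4, against 4.25, 4.18, 6.47 and 7.93 CPM in untreated replicates 1 to 4. It was called lower at −0.79 ± 0.26 (SE, edgeR adjusted p = 0.0199), with the groups overlapping as they did for Egr1. This adjusted p was the largest among the 5 that fell. Fos and Dusp6 were named after their values were seen, as was Srf in the list of upstream genes.

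Among the other members of the EGR and KLF families, 10 of 14 passed the count filter, and 2 fell and none rose, with a median log2 fold change of −0.077. The 2 of 10 lower is close to the 18.5% of all tested genes called lower. The count of 0 higher was also 0 at an unadjusted p under 0.05 and with DESeq2. Klf15, known as an antifibrotic factor of the heart in mice, averaged 6.92 ± 0.134 CPM in TGF-β1 libraries and 10.7 ± 2.07 CPM in untreated ones (SD, n = 4 each), with a log2 fold change of −0.63 ± 0.13 (edgeR adjusted p = 0.000596). Klf5, an injury-response factor of muscle and fibroblasts, averaged 6.65 ± 0.138 CPM in TGF-β1 libraries and 9.76 ± 1.48 CPM in untreated ones, with a log2 fold change of −0.56 ± 0.12 (edgeR adjusted p = 0.00115). For both, every TGF-β1 library was below every untreated one, and 33.9% of all tested genes were so apart in one direction or the other. With library totals 5 of the 10 fell, where 3673 of 13960 tested genes were lower. Klf17 had no read in any library, and Egr4, Klf1 and Klf14 were too low to test. Of 5 tested SP factors, relatives of the KLF family that bind the same GC boxes, Sp3 fell by 0.23 ± 0.05 on the log2 scale and none rose by edgeR, at an unadjusted p under 0.05 or by DESeq2. The median of the 5 was −0.14, and 1 of 5 lower is also close to the share over all tested genes.

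Several genes of proteins that act with these factors fell slightly. Of the EGR corepressor and RXR partner genes, 3 of 4 tested fell and none rose, also at an unadjusted p under 0.05 and with DESeq2. The number called was 2 with each limma fit and without TGF-β1 replicate 2, 3 or 4 or untreated replicate 1 or 3. Nab1 and Nab2 encode corepressors that bind EGR proteins, and Nab2 is itself induced by Egr1. Nab1 fell by 0.20 ± 0.05 and Nab2 fell by 0.19 ± 0.07 (edgeR adjusted p = 0.00152 and 0.0384). Rxra, a receptor gene whose product pairs with Nr4a1 and Nr4a2, fell by 0.25 ± 0.04. The median of the list was −0.20, and over all tested genes 18.5% were called lower.

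Upstream of the EGR genes, 3 of 7 genes of SRF, MRTF and the ternary complex factors rose and 1 fell, and with library totals 2 rose and 1 fell. The median of the list was 0.036, beside 17.6% of all tested genes called higher and 18.5% lower. Elk3, a ternary complex factor, rose by 0.27 ± 0.05, Elk4 by 0.16 ± 0.06 and the SRF coactivator gene Myocd by 0.64 ± 0.17, while Mrtfb fell by 0.22 ± 0.07 on the log2 scale. Srf was not called (62.0 ± 1.82 CPM in TGF-β1 libraries and 63.2 ± 2.32 CPM in untreated ones, edgeR adjusted p = 0.698). Of the ERK5, MEF2 and CREB genes, which act upstream of Klf2, Klf4 and the NR4A genes, 2 of 11 fell and none rose, also with DESeq2 and at an unadjusted p under 0.05, where 4 fell. The median of these 11 was −0.077. Over all tested genes 18.5% were called lower, and the share at an unadjusted p was not taken. Mef2c fell by 0.50 ± 0.07 on the log2 scale and Mef2a by 0.13 ± 0.05. With library totals 5 of the 11 fell, where 3673 of 13960 tested genes were lower. Mef2c is also a cardiac muscle gene, and the cardiomyocyte markers were lower in these libraries too, as given beside Egr1. Their part in the Mef2c result was not tested.

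Genes reported elsewhere as targets of EGR1 or KLF6 moved both ways. Of 16, 8 rose and 5 fell, with a median log2 fold change of 0.12, while 17.6% of all tested genes were called higher and 18.5% lower. Cd44, the hyaluronan receptor gene, rose by 0.83 ± 0.04, and the collagen genes Col1a1 and Col1a2 rose by 0.62 ± 0.04 and 0.41 ± 0.03. Cdkn1a, the cell cycle inhibitor gene and a KLF6 target, rose by 0.45 ± 0.04. The 5 that fell were Ptges (−1.19 ± 0.33), Plau (−1.14 ± 0.11), Icam1 (−0.60 ± 0.08), Nab2 (−0.19 ± 0.07) and Tgfbr1 (−0.13 ± 0.05). Many of these genes are also known targets of TGF-β itself, and the collagen genes are among the fibroblast markers above. With library totals 8 rose and 6 fell.

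**Figure D4:**
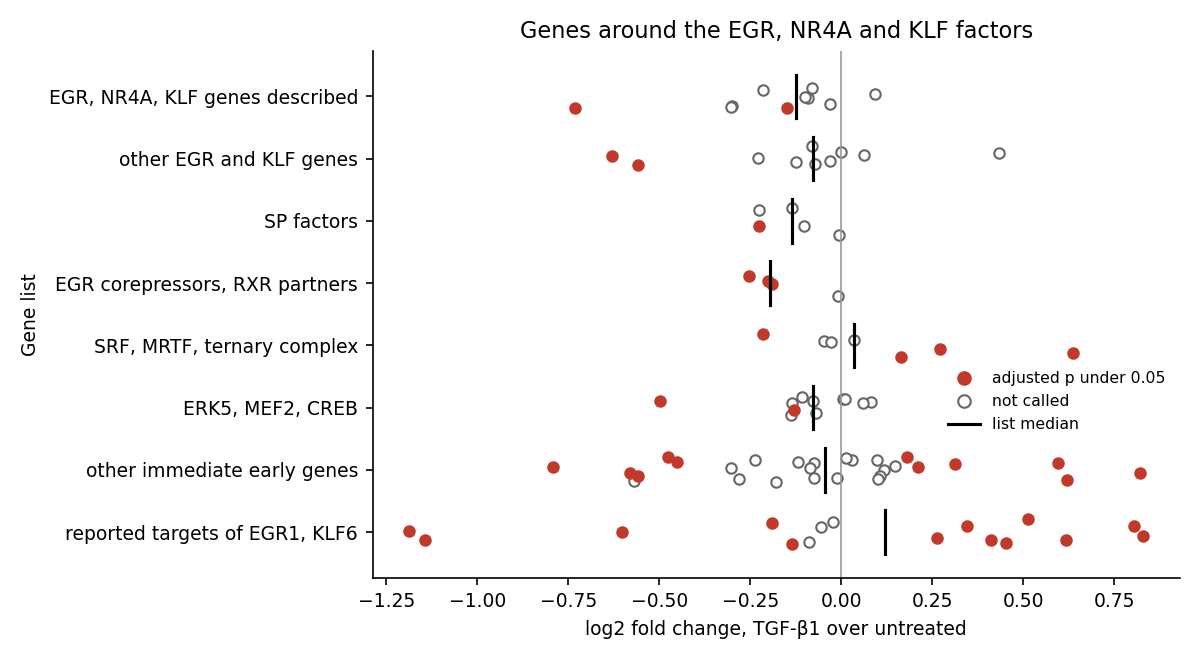
Log2 fold change of each tested gene, TGF-β1 over untreated, in the group described here and 7 lists of related genes, with filled red points for called genes and a bar for the list median. The medians run from −0.20 for the corepressor and RXR partner list to 0.12 for the reported targets of EGR1 and KLF6.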

How the data were processed

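The deposited table holds whole-number read counts per gene that the authors did not normalize, and their second deposited table holds FPKM values. Per the submitters' processing notes, the tools were CASAVA, HISAT2, Subread and featureCounts (no versions) and the build GRCm38 (mm10). In the series design the build is mm39. The table's coordinates overlap the same gene in GENCODE M39 (GRCm39) for 99.94% of 21778 coding genes and are read as GRCm39. Genes were kept by filterByExpr of edgeR 4.0.16 (minimum count 10, minimum total 15), scaled by TMM and compared by its quasi-likelihood test (two-sided, no covariate) in R 4.3.3. Benjamini-Hochberg adjustment ran over all 13960 genes tested. The SE of a log2 fold change is its size over the square root of F. The test was first run on simulated counts. Ratios of family members used log2(CPM + 0.5) and the 70 assignments of 4 against 4 libraries. Deviations from group means were taken on the same scale. Alternatives were RLE factors, library totals, other count filters, DESeq2 1.42.0, limma 3.58.1 on log2 FPKM, the replicate number as a block, and each library left out. Genes named beyond the 10 were Ccn2, Skil and Smad7, up to 4 called genes of each list with the smallest p (the highest CPM where none was called), and the 3 most alike in within-group deviations, of which 1 is not reported here. The fibroblast markers and the reported targets that fell were named in addition. The genes and lists were chosen with earlier results of these data known.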

Additional observations from a re-analysis of the deposited data

Results flagged for a closer look

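Egr3 in TGF-β1 replicate 3 stood apart from the other TGF-β1 libraries. It had 0.493 CPM there, from 7 reads, and 0.987, 1.04 and 1.07 CPM in replicates 1, 2 and 4. The gap to the nearest library was 0.878 of the range of the group on the log2 scale, above Dixon's 95% critical value for 4 samples. It was the single case in 20 groups of 4 examined, and chance gives about 1 in 20.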

How the results depend on the processing

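Most values kept their direction and side of the threshold under each alternative, and 19 turned sign. Without a count filter the fit gave Egr1 −0.73 ± 0.060 (SE, edgeR adjusted p = 2.93e-32) from the same 8 values that gave an SE of 0.21 with the filter, so that SE does not reflect the spread of Egr1 between replicates. For Egr1 the log2 fold change was −0.74 with DESeq2 and −0.67 and −0.73 with limma at pseudocounts of 1 and 0.1, none called, and −0.93 to −0.56 with a library left out. For Klf2 it was −0.18 to −0.11 with a library left out. With library totals Nr4a1, Klf4 and Klf6 were called at −0.38, −0.17 and −0.18, and Klf6 also at −0.11 with the stricter filter. With a library left out, they ran from −0.36 to −0.19, −0.17 to −0.058 and −0.12 to −0.072. Of the 4 genes with few reads, Egr2 (−0.16 to 0.20), Egr3 (−0.22 to 0.19) and Nr4a3 (−0.86 to 0.055) turned sign with a library left out, and Nr4a2 (−0.57 to −0.060) did not. The number of the 10 called lower was 5 with library totals, 1 with DESeq2, 1 with each limma fit and 1 to 4 with a library left out. It was 1 without TGF-β1 replicate 4 or untreated replicate 1, 3 or 4, and 4 without TGF-β1 replicate 1. Over all genes, 1301 were called higher with library totals. With library totals 5 other EGR and KLF genes and 5 ERK5, MEF2 and CREB genes were called. The second list had 1 called gene with each limma fit and 1 to 2 with a library left out (1 without TGF-β1 replicate 2 or 3 or untreated replicate 3). Ratios that turned sign with a library left out were Egr2 to Egr3 (−0.22 to 0.24), Nr4a1 to Nr4a2 (−0.28 to 0.17), Nr4a1 to Nr4a3 (−0.29 to 0.36), Nr4a2 to Nr4a3 (−0.29 to 0.38), Klf2 to Klf4 (−0.091 to 0.014) and Klf4 to Klf6 (−0.091 to 0.061). The cause was not tested for any of these. The replicate numbers were not taken as pairs, since same-numbered libraries had correlations of deviations of −0.07, −0.04, 0.01 and 0.08 over 10562 genes. Of the TGF-β1 libraries only replicate 4 correlated best with the untreated library of its number. Replicates 1, 2 and 3 did so with untreated replicates 2, 1 and 4 (0.14, 0.13 and 0.07). For Egr1 itself, replicates 3 and 4 were above replicates 1 and 2 in both groups. With the replicate number as a block, Egr1 was −0.74 ± 0.06 (edgeR adjusted p = 5.27e-09), Klf2 −0.15, and 2 of the 10 were lower, with 35.6% of all genes called against 36% without it. Depth limits Egr2, Egr3, Nr4a2 and Nr4a3, with 4 to 42 reads a library. The stricter filter removed Egr3 and Nr4a3, which have no value under it.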

Other observations

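Maff, a small MAF factor gene of the immediate early list, ran opposite to Egr1 within groups (Pearson r = −0.92 over 8 libraries). It had 46.3, 41.1, 36.7 and 35.2 CPM in TGF-β1 replicates 1 to 4, against 37.7, 37.5, 34.0 and 34.6 CPM in untreated replicates 1 to 4, and it was not called between the groups (log2 fold change 0.15 ± 0.07, edgeR adjusted p = 0.136).

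The genes closest in within-group deviations to the KLF genes, over the same 8 libraries, were Slc39a9, AY036118 and Dcaf5 for Klf2 (r = 0.99, 0.98 and 0.96), Timm21, Sipa1l3 and Wnk1 for Klf4 (0.98, 0.97 and 0.97), Stard13, Casp8ap2 and Pfdn4 for Klf6 (0.98, 0.97 and 0.97) and Tm2d3, Fah and Pcdhb19 for Klf10 (0.96, 0.96 and 0.95). For Nr4a1 they were Hic1, Jdp2 and Lamtor4 (0.98, 0.98 and 0.97), and for Nr4a2, after Dusp1, they were Mbtps2 and Smyd3 (0.98 and 0.98). Those of the thinly counted genes were Tfb2m, Pphln1 and Pop7 for Egr2 (0.99, 0.96 and 0.96), H2bc4 and Ube2s for Egr3 (0.995 and 0.972) and Wdr44, Gm49172 and Aste1 for Nr4a3 (0.97, 0.97 and 0.96). With 10561 or 10562 candidates and 8 libraries, values of this size are the top of a long list and no measure of a shared role.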
